A study of Mus musculus with 18 samples.

Results

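The genes described here are the nuclear-encoded subunits of the mitochondrial respiratory chain and the ATP synthase, followed through nuclear and cytoplasmic RNA of myofibers from 3 mouse muscles. They were chosen by name on the array: every non-control probe whose gene name begins with Nduf, Uqcr or Atp5, is Sdha to Sdhd, or is a numbered Cox subunit gene of the families 4 to 8 with a letter, and whose description does not mention a pseudogene. The rule found 87 genes with 121 probes, out of 35527 distinct gene names and 55681 probes on the array. By complex these were 38 genes of complex I and 4 of its assembly factors (the Ndufaf genes), 4 of complex II, 8 of complex III, 16 of complex IV and 17 of complex V. The rule used no measured value.

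Complex I takes electrons from NADH, and complex II, which is also the succinate dehydrogenase of the citric acid cycle, takes them from succinate. Complex III passes them on to cytochrome c, and complex IV, cytochrome c oxidase, hands them to oxygen. Complexes I, III and IV pump protons across the inner mitochondrial membrane, and complex V uses that gradient to make ATP. Most subunits are encoded in the nucleus, made in the cytosol and imported, while a small core of complexes I, III, IV and V is encoded by mitochondrial DNA, so the mRNAs studied here and those of their partner subunits are made in different compartments. Slow muscles such as soleus are rich in oxidative fibers with many mitochondria, whereas the extensor digitorum longus (EDL) and tibialis anterior (TA) are mainly fast. Several complex IV subunits exist in pairs, with a form enriched in heart and skeletal muscle (Cox6a2, Cox7a1, Cox8b) and a form found in most tissues (Cox6a1, Cox7a2, Cox8a).

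All samples were from untreated wild-type CD1 female mice aged 3 months, 9 mice in all, with no transgene or deletion in any group. EDL, soleus and TA were dissociated with collagenase, pools of 5 to 10 myofibers were lysed with detergent, and the pelleted nuclei and the remaining cytoplasm were hybridised separately, which gave 6 groups of 3 arrays. Each EDL and soleus replicate pooled 2 mice, the same mice in both muscles and both fractions. TA cytoplasm 1 and 2 pooled 2 mice each and shared 1 of them, and TA cytoplasm 3 and the TA nuclei arrays came from 1 mouse each. Myofiber pools keep the cells that adhere to the fibers, and the nuclear pellet holds the nuclei of these cells too.

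The arrays lay on 4 slides that did not cross the groups evenly. Slide 1 held EDL and soleus cytoplasm and TA cytoplasm 1, slide 2 held EDL and soleus nuclei, slide 3 held TA cytoplasm 3, and slide 4 held TA nuclei and TA cytoplasm 2. For EDL and soleus each fraction had a slide of its own, so an effect of slide and one of fraction cannot be told apart. In TA, muscle and slide can be separated only through TA cytoplasm 1. The labels fitted the slow-fiber and nuclear markers: 7 of 7 slow-fiber genes were higher in soleus than in EDL (median difference 4.06 in log2), and 5 of 5 nuclear RNAs were higher in nuclei (median difference 2.78). Fast-fiber genes separated less, with 3 of 7 called lower in soleus than in EDL and 0 higher (median -0.42). In TA against soleus, 7 of 7 slow-fiber genes were lower (median -5.40), and of the fast-fiber genes 2 were higher and 1 lower. Of 5 satellite cell markers, 1 could be tested over the 3 muscles. Levels below are log2 intensities scaled to a common distribution over all arrays (quantile normalization), so a difference of 1 is a 2-fold change relative to the other probes of the array and not per cell or per nucleus. In such bulk samples fewer cells of a type and less RNA per cell cannot be told apart. A difference was called at an adjusted p of 0.05 or less in limma, with Benjamini-Hochberg adjustment over all probes tested, and a gene with several probes is given by the one with the highest mean. Among the members, 84 genes were well above background on all 18 arrays, 119 probes of 85 genes could be tested, and no member spot was saturated. The other two genes, Cox7b2 and Cox8c, are testis forms of complex IV subunits and were not well above background in any group.

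The respiratory chain mRNAs stood higher in the nuclear than in the cytoplasmic RNA of all 3 muscles. The median level over the 83 members with a value on every array was 12.14, 11.80 and 12.03 in the EDL cytoplasm arrays and 12.41, 12.49 and 12.48 in EDL nuclei. It was 11.87, 12.22 and 12.01 in soleus cytoplasm and 12.53, 12.49 and 12.54 in soleus nuclei, and 11.74, 11.59 and 11.75 in TA cytoplasm and 12.09, 12.15 and 12.14 in TA nuclei. Within each muscle the lowest nuclear array was above the highest cytoplasmic array, and the standard deviation within groups was 0.11. Over the 3 muscles, 71 of the 85 genes were called higher in nuclei, 1 was called lower and 13 were not called. The median difference was 0.53 over the genes and -0.08 over all probes tested.

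**Figure D1:**
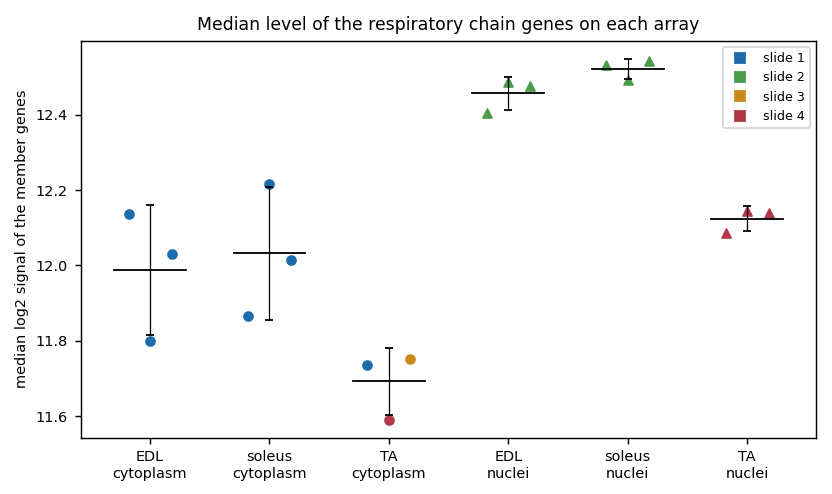
Median log2 intensity of the 83 respiratory chain genes with a value on every array, 1 point per array, by muscle and fraction; colour is the slide and bars are means ± SD of 3 arrays. In each muscle the 3 nuclear arrays lie above the 3 cytoplasmic arrays, and both fractions of TA lie below the same fraction of EDL and soleus.

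By probe, 98 of 119 (82.4%) were called higher in nuclei over the 3 muscles, against 31.2% of all probes tested, and 2 (1.68%) were called lower, against 38.6%. The members were brighter and varied less than most probes. Their median level per array ran from 11.59 to 12.54, against 6.66 to 7.03 for all probes. Their median standard deviation between replicates was lower in every group, at 0.15 against 0.25 in EDL cytoplasm and 0.34 against 0.40 in TA cytoplasm. The shares here and below were not matched for level or spread. Within EDL, 53 of the member probes were higher and 1 was lower, where the shares of all probes were 20.0% and 26.5%. Within soleus, 59 were higher and 1 was lower, against 18.7% and 21.7%. Within TA, 65 were higher and 1 was lower, against 19.2% and 33.5%. In each muscle the members were therefore called higher more than 2 times as often as the array as a whole. This depended on the scaling in soleus, where with arrays scaled by their 75th percentile 21 of 119 member probes were higher, against 6946 of 43620 probes tested, and the median over the genes was 0.22 in place of 0.54. A test of whether the fraction difference itself varied among the muscles called 0 of the 119 probes (3 had an unadjusted p under 0.05), against 1.57% of all probes, so no difference between muscles was detectable with 3 arrays a group.

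The shift was spread over the complexes. Complex I had 33 of 38 genes called higher in nuclei (median difference 0.57), its assembly factors 3 of 4 (0.57), complex III 7 of 8 (0.61), complex IV 10 of 14 (0.54) and complex V 16 of 17 (0.50). Complex II was lowest, with 2 of 4 genes called and a median of 0.31. The genes not called included Ndufa3, Ndufa7, Ndufa10, Ndufs8, Ndufaf4, Sdhc, Sdhd, Uqcrq, Cox6a1, Cox6c, Cox8a and Atp5j2.

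**Figure D2:**
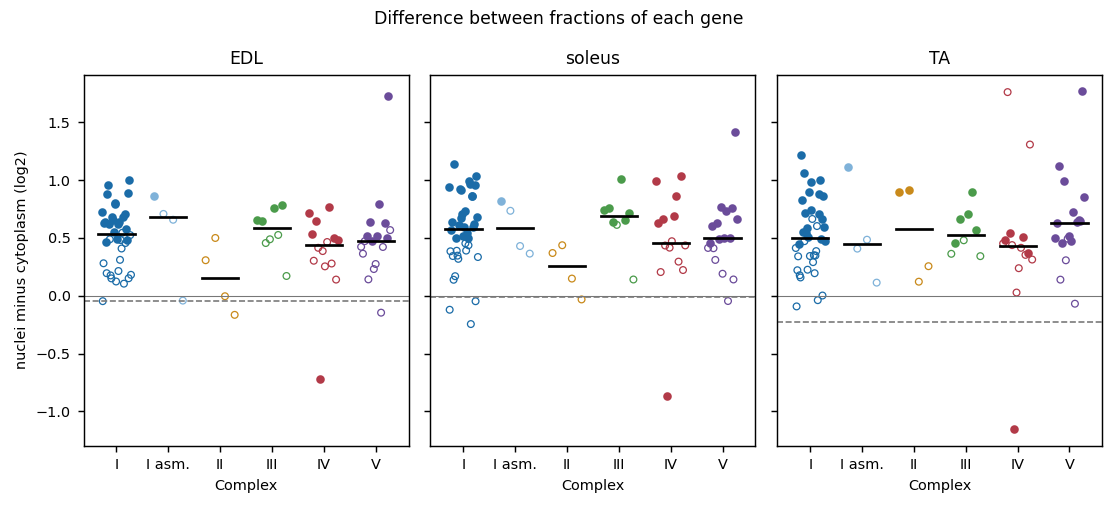
Nuclei minus cytoplasm difference (log2) of every tested respiratory chain gene by complex, 1 panel per muscle; filled points were called, open points were not, bars are complex medians and the dashed line is the median of all probes. Most points lie above the dashed line in each panel, and the median over the genes is 0.54 for soleus and 0.49 for each of the other two muscles.

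In complex I, Ndufv1, the flavin-carrying subunit that binds NADH, read 11.78, 11.19 and 11.50 in EDL cytoplasm and 12.38, 12.49 and 12.59 in EDL nuclei. It read 11.53, 11.84 and 11.69 against 12.76, 12.62 and 12.79 in soleus, and 11.08, 10.99 and 11.19 against 11.90, 12.01 and 11.94 in TA. No cytoplasmic array of a muscle reached a nuclear one, and the difference was 0.97 ± 0.10 (SE, adjusted p = 5.4e-07). Ndufs7, an iron-sulfur subunit close to the quinone site, was higher in nuclei by 0.84 ± 0.09 (adjusted p = 8.3e-07), and Ndufs1, the largest iron-sulfur subunit, by 0.75 ± 0.15 (adjusted p = 0.00029). Ndufb8, an accessory subunit of the membrane arm, was higher by 0.40 ± 0.09 (adjusted p = 0.0014).

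Ndufa4, long counted in complex I and later assigned to complex IV, had the largest called difference among the members that were well above background in every group. EDL read 11.14, 10.61 and 10.70 in cytoplasm and 11.59, 11.71 and 11.79 in nuclei. Soleus read 10.67, 10.73 and 10.89 against 11.95, 11.79 and 11.95, and TA 10.39, 9.10 and 10.06 against 11.00, 11.09 and 11.10. The fractions did not overlap within any muscle, TA cytoplasm 2 was the lowest array, and the difference was 1.08 ± 0.15 (adjusted p = 1.2e-05), or 2.11-fold. Its paralog Ndufa4l2, known as a hypoxia-induced gene, was also higher (0.65 ± 0.13, adjusted p = 0.00031), but unevenly: EDL gave 0.95, TA 0.82 and soleus 0.17. That unevenness did not pass the test (adjusted p = 0.3 for the difference among muscles).

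Ndufaf1, an assembly factor of complex I, read 7.98, 7.48 and 7.74 in EDL cytoplasm and 8.59, 8.56 and 8.63 in EDL nuclei, with the same order in the other two muscles, and differed by 0.93 ± 0.10 (adjusted p = 1e-06). The largest value of all members was that of Atp5s, a factor associated with the ATP synthase, at 1.64 ± 0.28 (adjusted p = 0.00012). Its probe was dim: the cytoplasmic arrays, which lay between 2.32 and 4.68 with 1 TA value missing, were not well above background in any muscle. The nuclear arrays lay between 4.48 and 5.46. The fitted folds of Atp5s were 3.30 in EDL nuclei and 2.67 in soleus nuclei. In TA it was higher in nuclei by 1.77 in log2 over the cytoplasmic arrays with a value. These are estimates and not minimum differences, and they are uncertain because the cytoplasmic values were so dim.

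In complex II, the catalytic subunits Sdha, which carries the flavin, and Sdhb, which carries the iron-sulfur clusters, were higher in nuclei by 0.52 ± 0.12 (adjusted p = 0.00094) and 0.62 ± 0.13 (adjusted p = 0.00083, with soleus cytoplasm 1 missing). The membrane anchors Sdhc (0.09 ± 0.10, adjusted p = 0.45) and Sdhd (0.02 ± 0.14, adjusted p = 0.9) were not called, although the dimmer probe of Sdhc was (0.63 ± 0.12, adjusted p = 0.00018). In complex III, the core proteins Uqcrc1 and Uqcrc2 were higher by 0.53 ± 0.15 (adjusted p = 0.0056) and 0.82 ± 0.10 (adjusted p = 4.5e-06), and Uqcrfs1, the Rieske iron-sulfur protein, by 0.69 ± 0.14 (adjusted p = 0.0004).

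In complex IV the muscle forms were higher in nuclei, Cox6a2 by 0.62 ± 0.12 (adjusted p = 0.00038), Cox7a1 by 0.32 ± 0.11 (adjusted p = 0.014) and Cox8b by 0.41 ± 0.11 (adjusted p = 0.0032). Cox7a1 depended on the scaling, since it was -0.03 when arrays were scaled by their 75th percentile. Of the widespread forms, Cox7a2 was higher by 0.52 ± 0.11 (adjusted p = 0.00082), while Cox6a1 (0.76 ± 0.51, adjusted p = 0.2) and Cox8a (0.56 ± 0.36, adjusted p = 0.18) were not called and had large errors, since their TA cytoplasm arrays were split as described with the muscles. The paired subunits around the catalytic core, Cox5a and Cox5b, were higher by 0.72 ± 0.12 (adjusted p = 0.00011) and 0.55 ± 0.10 (adjusted p = 0.00024). Cox7a2l, which takes part in joining complexes III and IV into supercomplexes, was higher by 0.71 ± 0.10 (adjusted p = 1.5e-05). The 3 tested probes of Cox7a2l ran from -0.25 to 0.75, with 2 called higher and 0 lower. The small subunits Cox6b1, Cox7b and Cox7c were higher by 0.43, 0.31 and 0.64, and Cox6c was at 0.28 ± 0.12 (adjusted p = 0.053).

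Cox6b2, known as the testis form of the cytochrome c-facing subunit Cox6b, was the member that ran the other way. It read 7.56, 7.58 and 7.59 in EDL cytoplasm and 7.01, 6.68 and 6.89 in EDL nuclei. In soleus it read 7.23, 8.41 and 7.84 against 6.94, 6.89 and 7.07, and in TA 7.95, 7.84 and 7.30 against 6.56, 6.54 and 6.55. Every nuclear array was below every cytoplasmic array of its muscle, and the difference was -0.91 ± 0.14 (adjusted p = 4e-05). The other probe called lower was the dimmer of 2 probes of Ndufa3, an accessory subunit of complex I, at -0.56 ± 0.21 (adjusted p = 0.029), while its brighter probe was at 0.16 ± 0.10 (adjusted p = 0.14).

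In complex V, the catalytic subunits Atp5a1 and Atp5b were higher in nuclei by 0.45 ± 0.10 (adjusted p = 0.0011) and 0.48 ± 0.09 (adjusted p = 0.00019), and Atp5c1, the central stalk that turns between them, by 0.73 ± 0.11 (adjusted p = 2.9e-05). The second probe of Atp5c1 was at -0.16 and was not called. The genes Atp5g1, Atp5g2 and Atp5g3 encode the same mature subunit c of the membrane ring with different import sequences. They were higher by 0.42, 0.50 and 0.33, all called. Along with Ndufa4l2, Cox7c (0.50, 1.04 and 0.37 in EDL, soleus and TA) and Atp5c1 (0.47, 0.61 and 1.12) had the smallest p for a difference among muscles, and none passed the adjustment (adjusted p = 0.17 for Cox7c and 0.35 for Atp5c1).

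**Figure D3:**
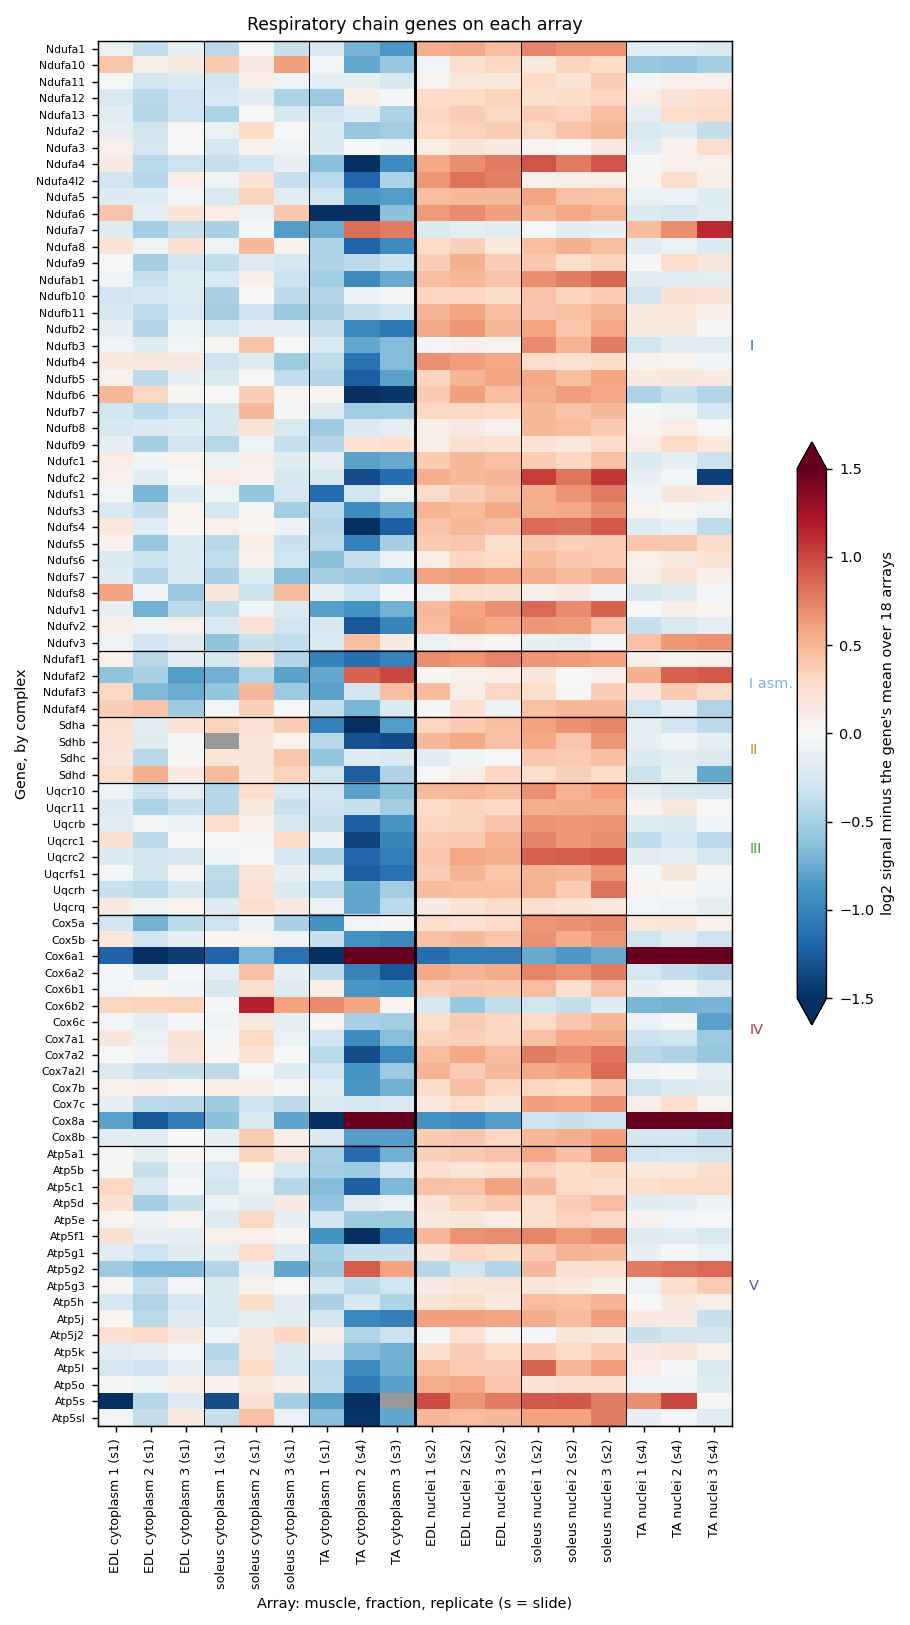
Level of 84 respiratory chain genes on the 18 arrays, ordered by complex, as log2 intensity minus the mean of that gene over the arrays; the colour scale saturates at 1.5 in either direction and grey marks missing values. EDL and soleus nuclei are mostly above the gene means, TA nuclei lie near them and TA cytoplasm mostly below, and a few genes are high on every TA array except TA cytoplasm 1.

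The subunits that mitochondrial DNA encodes differed in the opposite direction to their nuclear-encoded partners. Of 13 such subunits, 6 had a tested probe, and 5 were called lower in nuclei and 0 higher, with a median of -0.53. ND3 was at -1.26, ND6 at -0.74, ND5 at -0.66, ND1 at -0.40 and ND4L at -0.33, all subunits of complex I, and COX1 of complex IV was at -0.15 and not called. Of the nuclear respiratory chain genes that the naming rule leaves out, Cox4i1, the main form of complex IV subunit 4, was higher in nuclei by 0.44, cytochrome c (Cycs) by 0.41 and the ATP synthase component Usmg5 by 0.36, while Cox4i2, the oxygen-regulated form of subunit 4, was lower (-0.73).

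Related gene lists shared the direction in part. Citric acid cycle enzymes had 6 of 13 genes called higher in nuclei and 0 lower (median 0.31), assembly factors of complexes II to V 8 higher and 1 lower of 22 (0.23), and known regulators of respiratory genes 8 higher and 1 lower of 14 (0.44). Of all probes tested, 31.2% were called higher and 38.6% lower. The assembly factors were thus called higher at near the share of the array. The copper chaperone Cox17 (1.34) and the coactivator Pprc1 (1.23) were among the highest, and the mitochondrial DNA packaging factor Tfam was lower (-0.71). Genes that every myofiber uses also stood higher in nuclei in 4 of 5 cases, such as the creatine kinase Ckm by 0.66.

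Markers of other cells differed between the fractions as well, where 31.2% of all probes tested were called higher in nuclei and 38.6% lower. All 7 tested endothelial markers were called higher in nuclei (median 1.20), and their summed level ran from 10.51 to 12.33 in cytoplasm and from 12.47 to 12.86 in nuclei. Connective tissue markers were higher in 5 of 6 cases (0.89; 14.26 to 15.47 against 15.21 to 16.17) and Schwann cell markers in 3 of 5 with 1 lower (0.93; 7.73 to 9.27 against 9.06 to 10.81). Macrophage markers were lower in 4 of 7 cases (-0.55; 11.73 to 12.85 against 11.38 to 11.65), and adipocyte markers in 2 of 3 (-1.43). Their part in the respiratory chain differences was not tested.

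The precision of these differences rests on the cytoplasm. The members' median standard deviation between replicates reached 0.34 in TA cytoplasm, 0.22 in that of soleus and 0.15 in that of EDL, but 0.06, 0.06 and 0.07 in the nuclei of EDL, soleus and TA. Correlations between replicates ran from 0.985 to 0.992 in nuclei and from 0.906 to 0.971 in cytoplasm. The labels give the nuclear arrays of a muscle different mice, yet whether they were separate preparations is in doubt at this closeness, and if they were not, their spread is technical. The counts that follow come without the share of all probes in that setting, so they do not place the members against the array. When the 3 nuclear arrays of each muscle were averaged and counted as 1 sample, 30 member probes were called over the 3 muscles and 0 within EDL, soleus or TA, where 4, 11 and 14 had an unadjusted p under 0.05.

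The respiratory chain mRNAs of soleus, the oxidative muscle, were close to those of EDL. Of the 85 genes, 0 were called between the muscles over both fractions, 63 had a difference above 0 and the median was 0.08. By complex the medians were 0.02 for complex I and its assembly factors, 0.17 for complexes II, III and IV and 0.08 for complex V. By probe, 2 of 119 (1.68%) were called higher in soleus and 0 lower, with 11 at an unadjusted p under 0.05, against 2.27% and 1.56% of all probes. An equal level was not shown either: Sdha was at 0.25 ± 0.14 (adjusted p = 0.45), Uqcrc2 at 0.27 ± 0.13 (adjusted p = 0.33), Cox5a at 0.30 ± 0.15 (adjusted p = 0.39) and Atp5g2 at 0.44 ± 0.20 (adjusted p = 0.32).

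**Figure D4:**
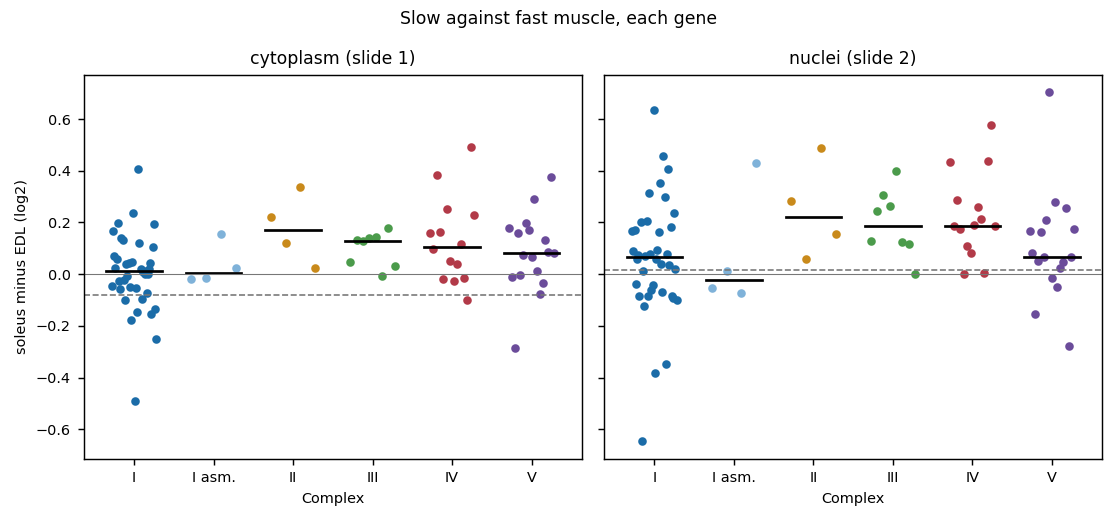
Soleus minus EDL difference (log2) of the respiratory chain genes by complex, in cytoplasm (slide 1) and nuclei (slide 2); bars are complex medians and the dashed line is the median of all probes. The median over the genes is close to 0 in cytoplasm (0.05), and in nuclei, where the fit of slide 2 called 14 genes, more points lie above 0 than below.

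The fractions differed in what they could resolve. Within slide 1, the cytoplasm, 0 member probes were called (2 had an unadjusted p under 0.05), against 0.0616% of all probes. Within slide 2, the nuclei, 18 member probes were called higher in soleus and 5 lower, against 8.64% and 5.6% of all probes. The genes higher in soleus nuclei included Atp5g2 (0.70, adjusted p = 0.011), Cox8a (0.57, adjusted p = 0.0066), Sdhc (0.49, adjusted p = 0.014), Ndufc2 (0.46, adjusted p = 0.031), Cox5a (0.44, adjusted p = 0.014), Cox7c (0.44, adjusted p = 0.017), Ndufs4 (0.41, adjusted p = 0.019), Uqcrc2 (0.40, adjusted p = 0.025) and Ndufb8 (0.35, adjusted p = 0.027). Ndufa4l2 was lower in soleus nuclei (-0.65, adjusted p = 0.0053). These p-values rest on the small spread among nuclear replicates given above.

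The 2 probes called over both fractions were second probes of genes whose brighter probe gave no call. Ndufb5, an accessory subunit of the membrane arm of complex I, read 9.73, 9.12 and 9.73 in EDL cytoplasm, 10.00, 9.90 and 9.96 in EDL nuclei, 10.32, 10.35 and 10.11 in soleus cytoplasm and 10.90, 10.98 and 10.96 in soleus nuclei. Soleus was above EDL on every array of the same fraction, by 0.86 ± 0.17 (adjusted p = 0.0085), while the brighter probe differed by 0.00 ± 0.14 (adjusted p = 0.99). Ndufv3, a small subunit of the NADH-binding module, read 7.20, 6.90 and 7.45 in EDL cytoplasm and 7.49, 7.51 and 7.35 in EDL nuclei. It read 8.28, 7.89 and 8.11 in soleus cytoplasm and 8.19, 8.16 and 8.37 in soleus nuclei, again with no overlap, and was higher in soleus by 0.85 ± 0.18 (adjusted p = 0.013), against -0.18 ± 0.13 (adjusted p = 0.57) for the brighter probe. The first 30 of 60 bases of both probes of each gene, as the array annotation gives them, are shown because the 2 probes disagreed. Capitals are not used, and why the probes disagreed was not tested. The positions are on build mm9. In Ndufb5 the pair lies close together on chromosome 3, the second probe at chr3:32650236-32650295 and the brighter at chr3:32650097-32650156. In Ndufv3 the second probe lies at chr17:31665148-31665207 and the brighter at chr17:31668209-31668268.
Ndufb5 second probe: cagggtagtaatgaaacctggaggtctggg
Ndufb5 brighter probe: gtgtgtccctctagtgggaagaaatgaata
Ndufv3 second probe: gtgccagaaggaggctcccaggtccaggag
Ndufv3 brighter probe: ggtagaccccgatgttggttcccatgaatc

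TA gave the largest differences between muscles, in both directions, and slide has to be read beside each of them. For most members TA was the lowest muscle: in cytoplasm it was lowest for 71 of 85 genes and in nuclei for 73, while soleus was highest for 52 and 60. Against EDL, 50 genes were called lower in TA and 6 higher, with a median of -0.45, and against soleus 54 were lower and 6 higher, with a median of -0.52. By probe, 73 of 119 (61.3%) were lower and 9 (7.56%) higher than in EDL, against 16.6% and 13.5% of all probes, and 76 (63.9%) were lower and 7 (5.88%) higher than in soleus, against 18.9% and 18.9%.

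On slide 1, where TA cytoplasm 1 lay beside the EDL and soleus cytoplasm, 0 member probes were called in either comparison (3 against EDL and 9 against soleus had an unadjusted p under 0.05), where 0.0% and 0.103% of all probes were. This comparison has 1 TA array, which was assumed to vary like the others. Its members lay lower than EDL by a median of -0.22 and than soleus by -0.29, where all probes were at 0.24 and 0.34. Of the 50 genes called lower than EDL, 46 were below the EDL cytoplasm mean there too, and of the 6 called higher, 5 were below it. TA cytoplasm 1 was itself part of the fit that called these genes, and the median over all members was below EDL there. These signs are therefore a description and not a separate test of the calls. The higher level of those 5 genes was not seen on the shared slide. Other lists were lower in TA than in EDL as well. Genes of all fibers were called lower in 4 of 5 cases (median -0.61) and citric acid cycle genes in 7 of 13 with 2 higher (-0.42). Assembly factors of complexes II to V were lower in 11 of 22 (-0.48). The respiratory chain genes outside the naming rule went the other way, 3 higher and 1 lower of 6 (0.47). This list was split by slide too. Its summed level was 14.34 in TA cytoplasm 1, below the EDL cytoplasm arrays (14.35 to 14.55). In TA cytoplasm 2 and 3 it was 15.07 and 15.04. Schwann cell markers were called lower in 5 of 5 cases (median -1.29) and connective tissue markers in 3 of 6 (-0.70). The part of these cells in the lower TA level was not tested. When nuclear arrays were averaged to 1 sample per muscle, 0 member probes were called against either muscle. The share of all probes called in that setting is not given, so this count does not place the members against the array.

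Complex II and complex III had all or nearly all of their genes lower in TA. Against EDL 3 of 4 complex II genes and 7 of 8 complex III genes were called lower, with medians of -0.79 and -0.55, and against soleus 4 of 4 and 8 of 8, with -0.88 and -0.62. In complex I 22 of 38 genes were lower than in EDL (-0.46), in complex IV 9 of 14 (-0.48) and in complex V 8 of 17 (-0.30). Sdha read 9.13, 8.47 and 9.32 in TA cytoplasm and 10.00, 9.86 and 9.75 in TA nuclei. In EDL it read 10.38, 9.98 and 10.34, and 10.47, 10.54 and 10.60. All TA arrays were below all EDL arrays of the same fraction, TA cytoplasm 1 included, and the difference was -0.96 ± 0.14 (adjusted p = 0.00036) against EDL and -1.21 ± 0.14 (adjusted p = 2.4e-05) against soleus.

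The other large decreases against EDL were in Ndufa6, an accessory subunit of complex I (-1.15 ± 0.17, adjusted p = 0.00035), Ndufb6 of its membrane arm (-1.12 ± 0.23, adjusted p = 0.0025) and Atp5f1, the b subunit of the peripheral stalk of complex V (-1.0 ± 0.13, adjusted p = 0.00014). Ndufa6 and Atp5f1 were also below EDL on slide 1, at -1.72 and -0.89. Ndufb6 was at -0.24 there, and its TA cytoplasm arrays read 10.64 on slide 1 but 8.81 and 9.15 on slides 4 and 3. Against soleus, Ndufc2 (-1.19 ± 0.23, adjusted p = 0.00097) and Ndufs4 (-1.11 ± 0.17, adjusted p = 0.00017) of complex I were next to Sdha.

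The members called higher in TA were led by widespread forms of complex IV subunits. Cox6a1 read 9.96, 9.65 and 9.77 in EDL cytoplasm, 10.03, 10.13 and 10.13 in EDL nuclei, 9.97, 10.50 and 10.06 in soleus cytoplasm and 10.42, 10.31 and 10.42 in soleus nuclei. In TA it read 9.03 in cytoplasm 1 on slide 1, but 14.28 and 13.96 in cytoplasm 2 and 3 and 13.97, 14.11 and 14.46 in nuclei. The TA array on slide 1 was below every EDL and soleus array, and the 5 TA arrays on slides 3 and 4 were above all of them by more than 3 in log2. The fit gave 3.36 ± 0.63 against EDL (adjusted p = 0.0014), 4.18 without TA cytoplasm 1, and -0.77 on slide 1 alone.

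Cox8a followed the same course. It read 11.14, 10.68 and 10.91 in EDL cytoplasm, 11.03, 11.01 and 11.12 in EDL nuclei, 11.33, 11.73 and 11.16 in soleus cytoplasm and 11.64, 11.61 and 11.64 in soleus nuclei. In TA it read 10.38 in cytoplasm 1, then 13.88 and 13.79 in cytoplasm 2 and 3 and 13.73, 14.03 and 14.22 in nuclei. The fit gave 2.36 ± 0.44 against EDL (adjusted p = 0.0013), 2.90 without TA cytoplasm 1 and -0.53 on slide 1, and its second probe gave 1.29 ± 0.30 (adjusted p = 0.0047). Within TA cytoplasm, arrays 2 and 3 lay above array 1 on average by 5.09 for Cox6a1 and by 3.46 for Cox8a. For both genes the higher level was thus not seen on the TA array beside EDL and soleus on slide 1, which is 1 array. The 2 TA cytoplasm arrays that differ from TA cytoplasm 1 lay on other slides and were also scanned with the TA nuclei. Slide, scan and fiber pool therefore cannot be told apart, and the cause of the split was not tested.

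The same split ran through the other TA-high members. Ndufaf2, an assembly factor of complex I, read 5.98 in TA cytoplasm 1 and from 7.28 to 7.74 on the other TA arrays, where EDL and soleus ran from 5.91 to 6.91, with a fitted difference from EDL of 0.87 ± 0.24 (adjusted p = 0.012) and -0.12 on slide 1. Ndufa7, a complex I subunit, read 10.69 on slide 1 and from 11.91 to 12.55 on the other TA arrays (0.79 ± 0.24, adjusted p = 0.021, and -0.40 on slide 1). Ndufv3 was higher by 0.44 ± 0.13 (adjusted p = 0.015) and at -0.05 on slide 1. Satellite cell markers were split in the same way: their summed level was 6.80 in TA cytoplasm 1 and from 11.56 to 12.54 on the other TA arrays, where EDL and soleus ran from 6.47 to 7.60. Of the 5 markers, 2 could be tested against EDL and both were called higher in TA, the cell adhesion gene Cdh15 by 4.63 ± 0.68 (adjusted p = 0.00032) and Pax7, the defining factor of these cells, by 1.72 ± 0.34 (adjusted p = 0.0027), with Pax7 well above background on 1 of 3 TA cytoplasm arrays and on no EDL array. Their part in the TA values was not tested.

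The muscle forms of the same complex IV subunits went the other way in TA. Cox6a2 read 13.67 in TA cytoplasm 1 and 13.06 and 12.80 in cytoplasm 2 and 3, against 14.05, 13.82 and 14.03 in EDL cytoplasm, and differed by -0.84 ± 0.15 (adjusted p = 0.001). Cox7a1 differed by -0.72 ± 0.13 (adjusted p = 0.0011) and Cox8b by -0.60 ± 0.13 (adjusted p = 0.0036). Cox7a2, a widespread form, was also lower (-0.96 ± 0.14, adjusted p = 0.00032), so the widespread forms did not move as a group.

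**Figure D5:**
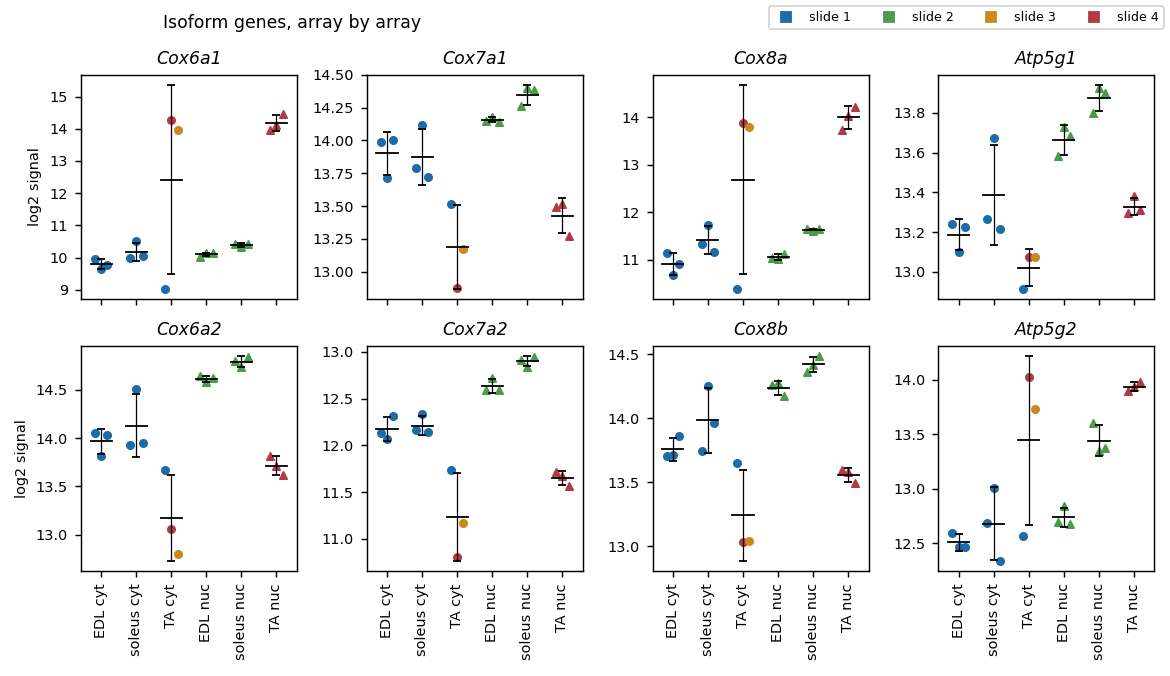
Level (log2 intensity) of paired complex IV subunit forms and of Atp5g1 and Atp5g2 on each array, by muscle; circles are cytoplasm, triangles nuclei, colour is the slide, and bars are means ± SD of 3 arrays. For Cox6a1, Cox8a and Atp5g2 the TA array on slide 1 lies with or below EDL and soleus, while the TA arrays on slides 3 and 4 lie above them, by more than 3 for Cox6a1.

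Atp5g2 showed how far this depends on the probe. Its brighter probe read 12.60, 12.46 and 12.46 in EDL cytoplasm and 12.69, 12.84 and 12.68 in EDL nuclei, and in TA 12.57 in cytoplasm 1, 14.03 and 13.73 in cytoplasm 2 and 3 and 13.90, 13.94 and 13.98 in nuclei. Its second probe read 12.53, 12.41 and 12.53 in EDL cytoplasm and 13.01, 13.04 and 13.03 in EDL nuclei, and in TA 12.30 in cytoplasm 1, 11.70 and 11.73 in cytoplasm 2 and 3 and 12.37, 12.40 and 12.37 in nuclei. The brighter probe was called higher in TA than in EDL (1.07 ± 0.20, adjusted p = 0.0015) and the second lower (-0.61 ± 0.13, adjusted p = 0.0036). The pair abuts on chromosome 15, with no base between them in mm9, the second at chr15:102493299-102493358 and the brighter at chr15:102493359-102493418. The second probe shares 30 or more bases with a probe named LOC100039108, so its signal may be shared. Atp5c1 was the other gene called both ways, -0.55 ± 0.14 (adjusted p = 0.0073) for the brighter probe at chr2:9977665-9977724 and 0.81 ± 0.13 (adjusted p = 0.0005) for the second, whose ends on chromosome 2, 9977788 and 9980644, lie further apart than the 60 bases of the probe and so span an intron. The first 30 bases of these probes are shown because the probes of each gene were called in opposite directions. Capitals are not used, and the cause of the opposite calls was not tested.
Atp5g2 brighter probe: atggttctttcgtgtctcgtctgccctgta
Atp5g2 second probe: ctggggaaagtgcttggctcagggtttgac
Atp5c1 brighter probe: ccactgagttacaaaggcagcaggatgttt
Atp5c1 second probe: tcatctctgggactgctgctctggattaat

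Agreement between probes of a gene was better for the fractions than for TA. Of the 26 genes with more than 1 tested probe, 15 had every probe called the same way between nuclei and cytoplasm and 0 had probes called both ways. The median spread between probes was 0.21 and the largest 0.995. Against EDL, TA had 11 genes with every probe called the same way and 2 called both ways, with a median spread of 0.34 and a largest spread of 1.68. Other members whose probes share 30 or more bases with probes of other names are Cox5b, Cox7c, Ndufs3, Ndufs6, Uqcr11, Uqcrq, Atp5h and Atp5l, whose values are uncertain for that reason. In Atp5l, Cox7a2l, Ndufb2, Ndufb4, Ndufb11, Uqcr10, Uqcrb and Uqcrh, probes of the same gene share 30 or more bases with each other. Agreement between such probes is in part built in.

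Many respiratory chain genes are known targets of the transcription factors NRF-1, GABP (an ETS factor), ERR and YY1, so their promoters were searched for these cores on both strands. Promoters of 300 bases (250 before and 50 after the start, RefSeq on GRCm38.p6) were found for 74 of the 87 genes. The NRF-1 core GCGCATGCG was in 9 of the 74 (12.2%), against 1.75% of 32851 promoters, the ETS core CCGGAAG in 17 (23%) against 8.86%, the YY1 core AAGATGGCG in 8 (10.8%) against 1.40% and the ERR element TCAAGGTCA in 2 (2.70%, Atp5g3 and Sdhd) against 0.423%. A match describes the letters and is not a site of binding. Promoter stretches of the 3 genes that stood highest in TA follow, with capitals for the NRF-1 core as both strands hold it (GCGCATGCGC) or the ETS core as it reads on the opposite strand (CTTCCGG). All are on the minus strand, Cox6a1 at chr5:115348943-115349145, Cox8a at chr19:7217590-7217646 and Atp5g2 at chr15:102671055-102671114.
Cox6a1: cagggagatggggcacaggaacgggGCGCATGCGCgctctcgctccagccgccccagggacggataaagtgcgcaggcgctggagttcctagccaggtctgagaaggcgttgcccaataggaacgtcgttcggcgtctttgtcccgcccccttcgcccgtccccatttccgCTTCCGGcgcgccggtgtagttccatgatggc
Cox8a: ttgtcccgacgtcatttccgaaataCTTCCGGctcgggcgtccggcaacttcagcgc
Atp5g2: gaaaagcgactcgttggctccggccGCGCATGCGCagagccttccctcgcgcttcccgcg

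Cox6a1 held both cores, the NRF-1 core starting at -162 and the ETS core at -16 from the start. Cox8a held the ETS core at -5, and again at 33 beyond the stretch printed, and no NRF-1 core in these letters. Atp5g2 held the NRF-1 core at -42 and no ETS core. No single core was in all 3 genes in this window. How the matches relate to the levels in TA was not tested. Of the factors' own genes and cofactors, the ERR genes Esrrb and Esrrg were called higher in soleus than in EDL, by 3.01 and 2.30, and of the 14 regulators tested 7 were called lower and 1 higher in TA than in EDL.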

How the data were processed

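RNA of nuclei and cytoplasm was measured on 18 single-colour Agilent arrays. Per the file headers, the deposited intensity per spot came from Feature Extraction 10.7.3.1, with background subtracted and spatial trends removed on each array but no scaling between arrays. The authors' quantile-normalized intensity matrix held 7 member probes and was an alternative only. Here the log2 of the deposited intensity was taken, spots without positive and significant signal or marked as outliers were set to missing, arrays were quantile-normalized and spots of a probe averaged. A model of 6 group means was fitted in limma 3.58.1 (R 4.3.3) with eBayes, in place of the SAM test of the study, with Benjamini-Hochberg adjustment over all probes with at least 2 of 3 values in each group involved. All tests were 2-sided. Depth does not apply to arrays: the 3 arrays a group limit precision.

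On simulated data with 200 probes changed by 2 in log2, the test of nuclei against cytoplasm over the 3 muscles recovered 97% of the changed probes, that of soleus against EDL 95.5%, and that of a difference among muscles 66%. Of their calls, 3%, 7.28% and 3.65% were of unchanged probes. The median member differences were smaller, 0.53 for nuclei minus cytoplasm and 0.08 for soleus minus EDL. Recovery at such sizes was not simulated, so these shares do not apply to them. Same-numbered EDL and soleus arrays came from the same mice per the labels, and their deviations from the group means correlated between -0.11 and 0.10. The members, the lists and the rule for named genes were chosen with earlier results of these data known: a fixed list of isoforms and core subunits, the 5 (nuclei against cytoplasm over the muscles, soleus against EDL) or 3 (other pairs) largest called differences in each direction, the 3 smallest p for the difference among muscles, and genes with probes called both ways. A gene of the fixed list is not reported here. Ndufaf2, Ndufa7, Ndufv3, Ndufb5 and Ndufa3 were in part named after their values were seen. Fits within slides 1 and 4 for TA were also chosen after the data were seen. Tables were read in R with the package data.table (version 1.17.8), and summaries and plots were made in Python 3.11.15 with pandas 2.3.3, numpy 2.4.6 and matplotlib 3.10.9.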

Additional observations from a re-analysis of the deposited data

How the results depend on the processing

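Counts are of the 119 member probes called. The share of all probes called is not given beside these counts. They show how a setting moved the members and not how the members stood against the array. With the mice as a replicate block there were 99 for nuclei against cytoplasm over the muscles, 49 in EDL, 51 in soleus, 65 in TA, 0 for a difference among muscles, 2 for soleus against EDL, 79 for TA against EDL and 83 for TA against soleus, and of the named genes Cox6c alone gained a call in nuclei against cytoplasm (0.28, adjusted p = 0.038). Without scaling there were 105 in EDL, 115 in soleus and 7 among muscles, and the median over the muscles was 1.10 with all probes at 0.42; relative to all probes the members were at 0.68, against 0.61 in the main setting. With the 75th percentile there were 22 in soleus, and Cox7a1 was -0.033. With normexp there were 1 among muscles and 6 for soleus against EDL, with a slide block 6, within slide 1 0 and within slide 2 23, and with 1 probe per gene 0. The authors' matrix, with at most 7 member probes, gave 7 over the muscles (median 0.42), 0 in EDL, 2 in soleus, 2 in TA, 0 for soleus against EDL (median 0.19), and 6 and 5 for TA against EDL and soleus. With nuclear arrays averaged, there were 30 over the muscles and 0 in EDL, soleus, TA and each muscle pair (39 and 48 had an unadjusted p under 0.05 for TA against EDL and soleus).

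Leaving out each array in turn gave 95 to 102 over the muscles (median 0.51 to 0.58), 33 to 78 in EDL, 35 to 77 in soleus, 46 to 81 in TA, 0 to 2 among muscles, 2 to 9 for soleus against EDL (median 0.03 to 0.12), 70 to 88 for TA against EDL and 73 to 92 for TA against soleus. Counts moved by over 1.5 times without EDL cytoplasm 2 (33) or EDL nuclei 2 (35) in EDL, without soleus cytoplasm 1 (39) or 3 (35) or nuclei 1 (38) or 3 (39) in soleus, and without TA cytoplasm 1 (9) or 2 (4) for soleus against EDL and TA cytoplasm 1 (2) among muscles. Ndufb6 lost its call for nuclei against cytoplasm (0.44, adjusted p = 0.049) without most single arrays.

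Within slide 1, 0 were called for TA against EDL and 0 against soleus. Signs that turned there against EDL included those of Cox6a1 (-0.77), Cox8a (-0.53), Ndufa7 (-0.40), Ndufaf2 (-0.12), Ndufv3 (-0.05), Cox6b1 (0.11), Cox6c (0.090) and Cox7a2l (0.014). Against soleus they included those of Cox6a1 (-1.15), Cox8a (-1.02), Ndufa7 (-0.30), Atp5g2 (-0.11), Ndufaf2 (-0.11), Cox6b1 (0.13) and Cox6c (0.04). Within slide 4, with 1 TA cytoplasm array, nuclei minus cytoplasm of TA had a median of 0.64 over the genes, with all probes at -0.32. The cause of these differences was not tested.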
